A study of Mus musculus with 19 samples.

Results

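The 29 genes described here are known as genes of podocytes, the epithelial cells that wrap the capillaries of the kidney glomerulus. They were taken by symbol from a list of podocyte genes by a rule that names no measured value. The list was chosen with earlier results of these data known. All 29 were found among the 54146 genes of each RNA table. The study removed Dnmt3a and Dnmt3b, which encode the de novo DNA methyltransferases, from developing kidney and measured DNA methylation and RNA. RNA from whole kidneys at postnatal day 21 was sequenced in 5 of the 19 libraries of the series. The control group held 3 libraries from B6C3F1/J mice with floxed Dnmt3a and Dnmt3b genes and no Cre (genotype Dnmt3ab f/f). The KspCre DKO group held 2 libraries from mice of the same strain and age with the same floxed genes and KspCre (genotype KspCre Dnmt3ab f/f). The Ksp-cadherin promoter that gives this Cre its name is active in tubule epithelium and is not expected to act in podocytes. The labels do not say whether each library came from a separate animal, so p-values measure the spread between libraries. The 14 bisulfite libraries are not analysed here.

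Podocytes extend interlocking foot processes over the glomerular basement membrane, and the gaps between them are bridged by the slit diaphragm, a cell junction built around nephrin and its relatives. An actin cytoskeleton supports the foot processes, a set of transcription factors maintains the cell type, and secreted signals such as VEGF-A sustain the neighbouring glomerular endothelium. Podocytes are a small part of the cells of a whole kidney. In such bulk samples fewer podocytes and less RNA per podocyte cannot be told apart.

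Values are TPM, transcript abundances that take gene length into account, so that levels of different genes can be compared. TPM hold no read numbers, and library depth is therefore unknown. Libraries were unequal in content: 18488 to 20075 genes were above 0 TPM in the controls, 20510 in KspCre DKO 1 and 14710 in KspCre DKO 2, and mitochondrially encoded genes held 18.2% to 23.2% of TPM in the first 4 and 31.0% in KspCre DKO 2. Dnmt3a ranged from 13.2 to 18.97 TPM among controls and from 9.98 to 14.2 TPM among KspCre DKO libraries, and Dnmt3b from 1.82 to 2.86 and from 2.29 to 3.25 TPM. Whole-gene TPM of a floxed gene need not show the loss of an exon, so the group of each library rests on its label.

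The promoters of a few of these genes are shown because DNA methylation is placed on CpG pairs and the genes differ widely in how many they carry. RefSeq (GRCm38.p6) gave 25 promoters for 22 of the 29 genes, taken here as the 250 bases before the start of transcription. Arhgap24, Ddn, Foxc2, Podxl, Rhpn1, Synpo and Wt1 had no entry. The 25 promoters held a median of 12 CpG pairs and a range of 2 to 31, against a median of 6 in all 32851 promoters of the same length. At least 15 CpG pairs were present in 36% of them and in 27.3% of all promoters. These 9 promoters belonged to 8 genes, as Inf2 was counted with overlapping windows. For some genes, Nphs1 among them, the RefSeq start used lies inside the widest annotated span of the gene. The promoters printed all lie before that span. They belong to a slit diaphragm gene (Ptpro, chr6:137252049-137252298, plus strand), to the only gene of the set whose KspCre DKO values both lay above the controls (Clic3, chr2:25456593-25456842, plus strand), and to a pair of genes among those of smallest p (Nes, chr3:87970843-87971092, plus strand, and Thsd7a, chr6:12749254-12749503, minus strand). Each reads 5′ to 3′ along the gene, and capitals mark CpG pairs.
Ptpro: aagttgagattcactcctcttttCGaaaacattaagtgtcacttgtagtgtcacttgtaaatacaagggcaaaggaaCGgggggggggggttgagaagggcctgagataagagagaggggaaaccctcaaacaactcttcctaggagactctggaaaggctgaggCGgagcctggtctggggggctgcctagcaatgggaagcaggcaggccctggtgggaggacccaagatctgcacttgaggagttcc
Clic3: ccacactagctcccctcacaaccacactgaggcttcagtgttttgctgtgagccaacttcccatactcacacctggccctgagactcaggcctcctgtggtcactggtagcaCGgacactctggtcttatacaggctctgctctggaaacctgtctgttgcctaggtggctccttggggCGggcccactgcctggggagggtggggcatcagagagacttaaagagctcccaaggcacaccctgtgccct
Nes: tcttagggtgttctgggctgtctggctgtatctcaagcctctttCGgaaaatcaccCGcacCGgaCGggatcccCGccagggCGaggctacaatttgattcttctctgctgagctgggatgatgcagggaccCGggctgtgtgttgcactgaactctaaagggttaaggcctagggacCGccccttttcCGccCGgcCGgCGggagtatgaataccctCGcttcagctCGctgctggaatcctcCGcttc
Thsd7a: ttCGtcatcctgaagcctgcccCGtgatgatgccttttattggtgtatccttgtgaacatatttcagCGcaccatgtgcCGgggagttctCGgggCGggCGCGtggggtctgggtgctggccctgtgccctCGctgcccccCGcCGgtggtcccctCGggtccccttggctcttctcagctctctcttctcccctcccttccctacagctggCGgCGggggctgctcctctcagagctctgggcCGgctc

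The Ptpro promoter held 3 CpG pairs and that of Clic3 2, while those of Nes and Thsd7a held 15 each. Podocyte transcription factors bind known short motifs, which were searched on both strands. The WT1 core GTGGGNG was present in 40% of the 25 promoters, among them those of Ptpro and Nphs1, and in 28.1% of all promoters. These 10 promoters belonged to 9 genes, as the overlapping windows of Inf2 both held it. The E-box CAGCTG was present in 16% against 13%, the LMX1B core TAATTA in 4% against 4.84%, and the forkhead motif GTAAACA in none against 3.17%. These matches are descriptions of the letters in these windows. The methylation of these promoters is not analysed here.

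No podocyte gene passed the test between the groups. The difference was tested for 28 of the 29 genes with limma, a linear model fitted across the 13963 genes whose mean over all libraries reached 1 TPM. Trpc6, which encodes a calcium channel of the slit diaphragm, was below that level. None of the 28 genes had an adjusted p (limma, Benjamini-Hochberg over all genes) below 0.05, which 0.165% of all tested genes had, 0.1% of them higher and 0.0645% lower. At an unadjusted p below 0.05, 3 of the 28 were lower (Rhpn1, Dpp4 and Thsd7a) and none was higher, where 10.3% of all tested genes were below it, 6.15% lower and 4.16% higher. Log2 fold changes, given on the log2(TPM + 1) scale as KspCre DKO minus control, were below 0 for 18 genes and above 0 for 10. Their median was −0.22, against −0.14 for all tested genes, of which 61.7% were below 0 and 38.3% above. The 12 genes taken as mainly podocytic had a median of −0.40, which ran from −0.67 without control 2 to −0.14 without control 3. The 16 tested genes also found in other kidney cells had one of −0.12. With a filter at a mean of at least 5 TPM, the median was 0.02 for the 7 mainly podocytic genes left. It was then −0.04 for the 19 podocyte genes left and −0.14 for all tested genes. The KspCre DKO values lay below every control for 5 of the 28 genes and above every control for 1, where 15.6% and 10.5% of all tested genes, 26.1% together, had no overlap. The counts of the podocyte genes are near these shares.

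**Figure D1:**
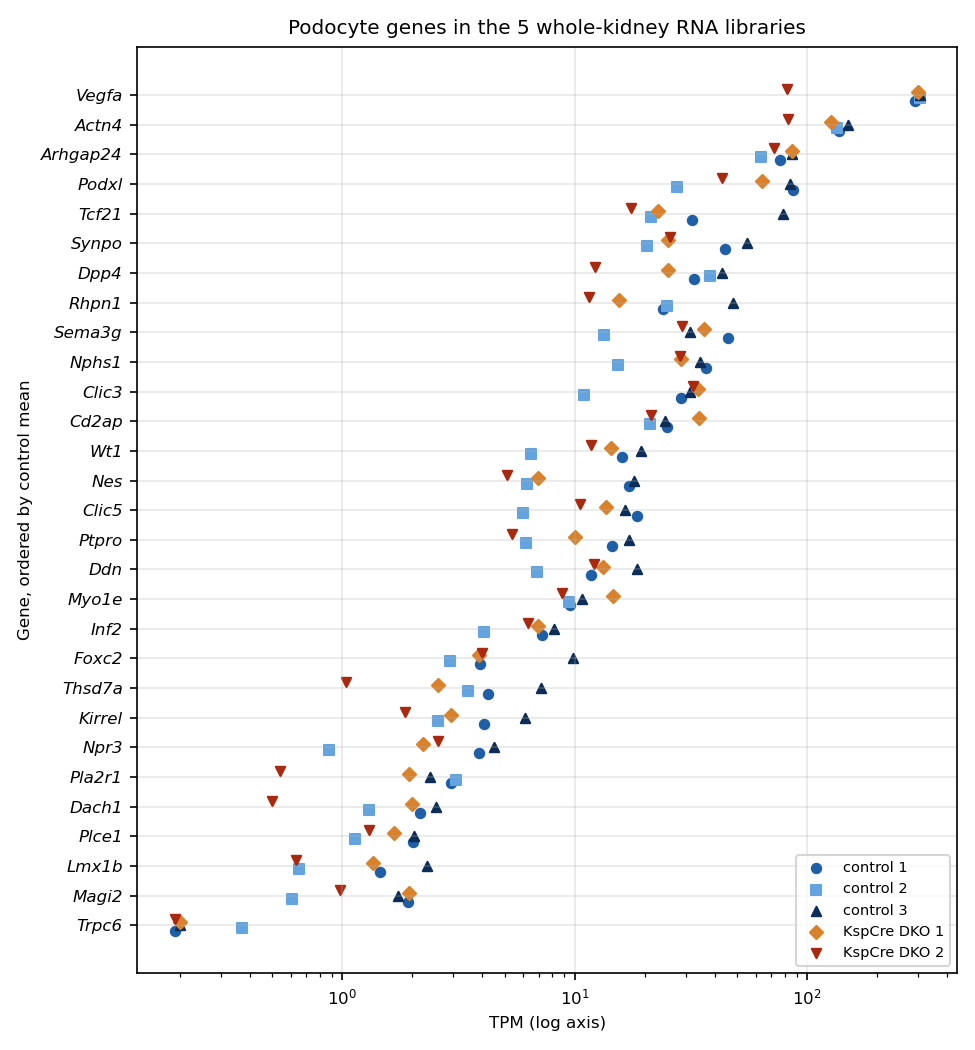
TPM of each of the 29 podocyte genes (log axis) in the 3 control and 2 KspCre DKO libraries, 1 point per library, with genes ordered by control mean. Control 2 lies left of the other controls for most genes, and KspCre DKO 2 stands far below the other 4 libraries for Vegfa.

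The genes spanned 3 orders of magnitude in level. Vegfa (300 ± 7.58 TPM, SD, n = 3) and Actn4 (140 ± 8.14 TPM) were the highest in the controls and the only ones above 100 TPM. The control mean was above 10 TPM for 17 genes and above 1 TPM for 28, and no gene was listed at 0 in any library. Trpc6 was the lowest, at 0.19 to 0.37 TPM in all 5 libraries.

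No slit diaphragm or membrane gene passed the test, and the groups overlapped for all 5. Nphs1 (ENSMUSG00000006649.17, chromosome 7, 30458207 to 30488623), which encodes nephrin, the adhesion protein that spans the slit, stood at 36.7, 15.3 and 34.6 TPM in controls 1, 2 and 3 respectively, and at 28.5 and 28.2 TPM in KspCre DKO 1 and 2. Both KspCre DKO values lay inside the control range, and the log2 fold change was 0.07 ± 0.40 (SE; limma adjusted p = 0.964). Its 95% interval ran from −0.84 to 0.98, which takes in differences of nearly 1 log2 unit either way. Podxl (chromosome 6, 31519493 to 31563937), which encodes podocalyxin, the sialomucin that coats the apical surface of foot processes, stood at 87.2, 27.4 and 84.3 TPM against 63.8 and 43.0 TPM. Control 2 was again the lowest library and the groups overlapped (log2 fold change −0.16 ± 0.50 SE, limma adjusted p = 0.932). Ptpro, a receptor tyrosine phosphatase of the same surface, stood at 14.5, 6.19 and 17.1 TPM against 9.98 and 5.37 TPM, so that control 2 and KspCre DKO 2 were both low (log2 fold change −0.59, 95% interval −1.65 to 0.46). Kirrel, the nephrin-binding protein NEPH1, and Magi2, a scaffold of the slit diaphragm, were lower in level, at 4.25 ± 1.78 and 1.42 ± 0.71 TPM among controls against 2.41 ± 0.77 and 1.46 ± 0.68 TPM (SD, n = 3 and 2). The log2 fold change of Kirrel was −0.59, with a 95% interval from −1.53 to 0.36. Of the 5 genes of this role, 3 had fold changes below 0 and 2 above.

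The 11 genes of adaptors and the actin cytoskeleton held both the lowest and the highest fold change of the set, with a median of 0.07. Rhpn1 (chromosome 15, 75704246 to 75714419), which encodes the adaptor protein rhophilin-1, stood at 23.9, 24.96 and 48.1 TPM among controls, compared with 15.5 and 11.6 TPM in the KspCre DKO libraries. The groups did not overlap, and the log2 fold change was −1.14 ± 0.37 (SE; limma adjusted p = 0.339, unadjusted p = 0.0146). Synpo (chromosome 18, 60593981 to 60660173), which encodes the actin-associated protein synaptopodin, stood at 44.2, 20.4 and 55.1 TPM against 25.2 and 25.6 TPM, the latter within the control range. Actn4, the actin cross-linker alpha-actinin-4, stood at 137, 134 and 149 TPM against 127 and 82.7 TPM. Its groups did not overlap, and KspCre DKO 2 was the library that stood apart (log2 fold change −0.44 ± 0.27 SE, limma adjusted p = 0.619, and −0.14 without KspCre DKO 2). Nes, the intermediate filament protein nestin, stood at 17.04, 6.21 and 17.96 TPM against 6.97 and 5.12 TPM (log2 fold change −0.95 ± 0.46 SE, limma adjusted p = 0.528). The KspCre DKO values were near control 2 and below the other controls.

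Clic3 (chromosome 2, 25456843 to 25458777), a chloride intracellular channel family member, lay on the opposite side, with 28.8, 10.9 and 31.3 TPM for the controls but 33.99 and 32.3 TPM in the KspCre DKO libraries. Both KspCre DKO values were above the highest control by little, and the log2 fold change of 0.60 ± 0.44 did not pass (limma adjusted p = 0.676). Clic3 overlaps Paxx, which stood at 35.8 to 53.5 TPM. The strand setting of the counting is not given in the sources used here, so the value of Clic3 is uncertain. The same holds for Lmx1b, which overlaps C130021I20Rik (2.56 to 7.03 TPM), and for Magi2, which overlaps 4921504A21Rik (1.27 to 6.07 TPM). Clic5, a relative that links the membrane to actin through ezrin, stood at 18.5, 5.99 and 16.5 TPM against 13.6 and 10.5 TPM. Arhgap24, a GTPase-activating protein for Rac, was among the 5 most abundant genes and nearly level, at 76.1, 63.5 and 86.1 TPM against 86.4 and 72.1 TPM. Ddn (dendrin), Inf2 (a formin), Cd2ap (the adaptor that ties nephrin to actin) and Myo1e (a class I myosin) had fold changes of 0.13, 0.07, 0.20 and 0.18, each smaller than its SE.

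The 5 transcription factor genes had overlapping groups. Wt1 (chromosome 2, 105126529 to 105173614), the factor that defines the podocyte lineage, stood at 16.0, 6.51 and 19.3 TPM against 14.3 and 11.7 TPM. Its fold change was 0.02 ± 0.44 (limma adjusted p = 0.992), with a 95% interval from −0.99 to 1.03. Tcf21 (chromosome 10, 22817263 to 22820143), a basic helix-loop-helix factor of podocytes and of the renal stroma, stood at 32.04, 21.3 and 78.7 TPM against 22.9 and 17.4 TPM. Control 3 was far above the other libraries, so the fold change of −0.89 ± 0.50 (limma adjusted p = 0.589) was −0.37 without control 3. Foxc2, a forkhead factor, was also highest in control 3, at 3.92, 2.92 and 9.83 TPM against 3.86 and 4.0 TPM. Lmx1b, a LIM homeodomain factor, stood at 1.45, 0.65 and 2.31 TPM against 1.35 and 0.63 TPM, and Dach1, a transcriptional cofactor, at 2.16, 1.3 and 2.53 TPM against 1.99 and 0.50 TPM. In Lmx1b the lowest control and the lowest KspCre DKO value were alike.

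Receptors, enzymes and antigens held 3 of the 5 genes whose KspCre DKO values lay below every control, and all 5 tested genes of this role had fold changes below 0, with a median of −0.83. Of all tested genes 15.6% lay below every control and 61.7% had fold changes below 0. Dpp4 (chromosome 2, 62330073 to 62412315), a membrane peptidase that proximal tubule cells also carry on their brush border, stood at 32.7, 38.2 and 42.9 TPM against 25.2 and 12.2 TPM. Its fold change was −1.06 ± 0.35 (SE; limma adjusted p = 0.343), and −0.57 without KspCre DKO 2 (limma adjusted p = 0.501). The 12 proximal tubule markers measured beside it summed to 3030 to 4690 TPM in the controls, 7060 TPM in KspCre DKO 1 and 2510 TPM in KspCre DKO 2, with none at 0, 6 of 12 with fold changes below 0 and a median of 0.07. Their part in the Dpp4 difference was not tested.

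Thsd7a (chromosome 6, 12311608 to 12749253) and Pla2r1 (chromosome 2, 60417543 to 60553326) are the mouse counterparts of genes for podocyte antigens of human membranous nephropathy. Which cells of these mouse kidneys express them was not measured. Thsd7a stood at 4.23, 3.47 and 7.14 TPM against 2.58 and 1.04 TPM (log2 fold change −1.09 ± 0.43 SE, limma adjusted p = 0.429). Pla2r1 stood at 2.94, 3.08 and 2.39 TPM against 1.94 and 0.54 TPM (log2 fold change −0.83 ± 0.43 SE, limma adjusted p = 0.549). Neither gene's groups overlapped, and in each KspCre DKO 2 was the lowest library. Without it the fold changes were −0.68 for Thsd7a and −0.37 for Pla2r1. Both are low in whole kidney, where TPM are imprecise. Plce1, a phospholipase C, stood at 1.73 ± 0.52 TPM against 1.48 ± 0.26 TPM, and Npr3, the clearance receptor for natriuretic peptides, at 3.08 ± 1.93 against 2.41 ± 0.25 TPM (SD, n = 3 and 2). Trpc6 stood at 0.19, 0.37 and 0.20 TPM against 0.20 and 0.19 TPM.

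Of the secreted signals, Vegfa was set apart by 1 library. Vegfa (chromosome 17, 46016993 to 46032377), the endothelial growth factor that podocytes and tubule cells release, stood at 291, 305 and 304 TPM in the 3 controls, 299 TPM in KspCre DKO 1 and 81.8 TPM in KspCre DKO 2. The first 4 libraries were nearly level, and the fold change of −0.93 ± 0.47 (limma adjusted p = 0.545) was −0.01 without KspCre DKO 2. Without KspCre DKO 1, in a fit with 1 library left in that group, Vegfa (−1.86) and Dpp4 (−1.55) were called lower (limma adjusted p = 0.0341 and 0.0467), as were 3.34% of all tested genes, and 0.637% were called higher. Markers of the thick ascending limb, a tubule segment, had a lower sum in both KspCre DKO libraries: their 9 genes summed to 2510 to 2850 TPM in the controls, 1300 TPM in KspCre DKO 1 and 762 TPM in KspCre DKO 2, all 9 with fold changes below 0 and none at 0. Their part in the Vegfa value was not tested. Sema3g, a class 3 semaphorin, stood at 30.1 ± 16.2 against 32.4 ± 4.91 TPM (SD, n = 3 and 2).

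**Figure D2:**
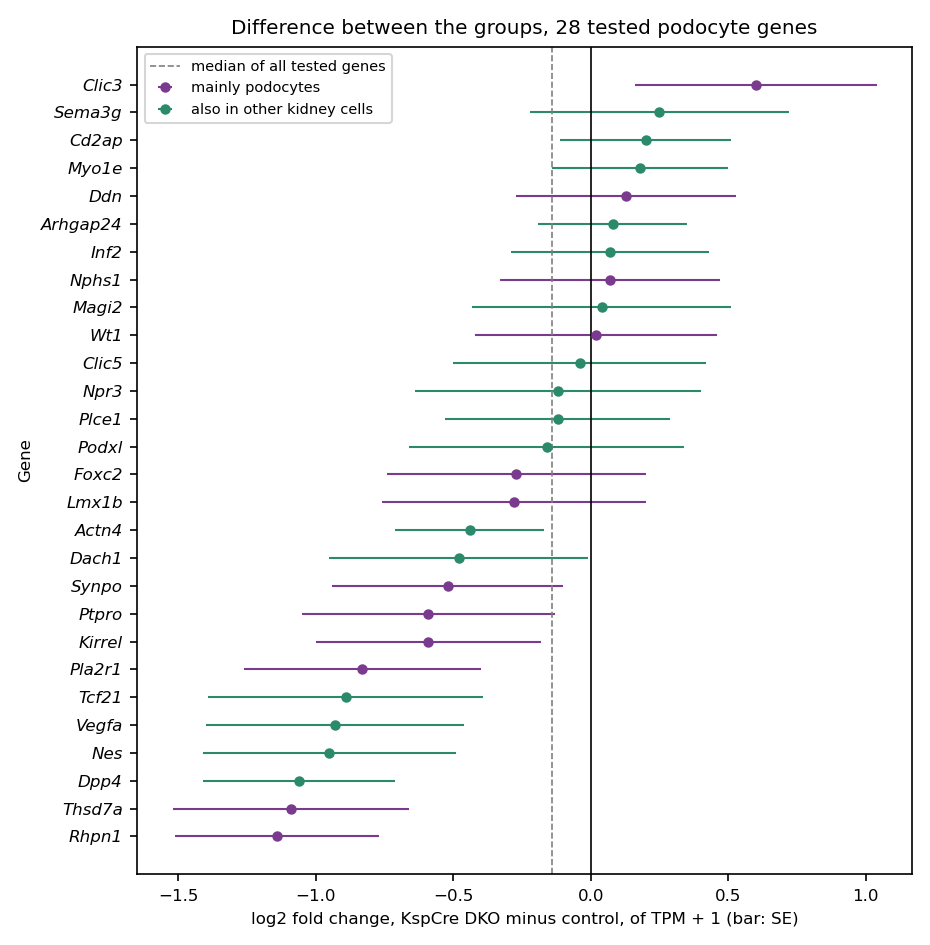
Log2 fold change of TPM + 1, KspCre DKO minus control, of the 28 tested genes, with bars of 1 SE from limma. Colour separates genes mainly of podocytes from those also found in other kidney cells, the dashed line is the median of all tested genes (−0.14), and values run from −1.14 for Rhpn1 to 0.60 for Clic3.

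Most of these genes differed widely within the control group, where control 2 was usually the lowest library. Of the 28 tested genes, 24 were lowest of the 3 controls in control 2, as were 47.2% of all tested genes. For 15 of the 28 the control 2 value was below 50% of the mean of controls 1 and 3, where 9.01% of all tested genes were. Over all 5 libraries 15 had their lowest value in control 2 and 13 in KspCre DKO 2, and none had it in control 1, control 3 or KspCre DKO 1. Among all tested genes 18.7% were lowest in control 2, 54.8% in KspCre DKO 2, and 8.73%, 9.07% and 7.1% in control 1, control 3 and KspCre DKO 1. KspCre DKO 2 was below KspCre DKO 1 for 25 of the 28 podocyte genes and for 79.3% of all tested genes. Control 3 was the highest library for 17 of the 28, and for 22.9% of all tested genes.

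The control 2 level differed between genes. Nphs1, Podxl, Wt1, Synpo, Ptpro, Clic5 and Lmx1b stood at 42.9%, 32%, 36.9%, 41.0%, 39.2%, 34.3% and 34.6% of the mean of controls 1 and 3. Vegfa, Dpp4, Actn4, Myo1e and Cd2ap stood at 102%, 101%, 93.8%, 92.7% and 85.3%. Of the tested genes taken as mainly podocytic, 8 of 12 were below 50%, with Pla2r1 at 116% and Rhpn1 at 69.3% above it. Of those also found in other kidney cells, 7 of 16 were below 50%, among them Npr3 at 21.0%.

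Markers taken for other glomerular cells were also low in control 2. Genes of the glomerular basement membrane were less so, with sums of 849, 891 and 988 TPM in controls 1, 2 and 3. Of these 14 genes 9 were lowest of the controls in control 2. All 11 tested markers taken for glomerular endothelium were lowest of the controls in control 2. Several, such as Pecam1 and Cdh5, mark endothelium of other kidney vessels too. The sum of this list was 438, 224 and 419 TPM for the controls and 427 and 322 TPM in the KspCre DKO libraries. Of the 10 markers of mesangium and juxtaglomerular cells, the contractile and renin-producing cells at the centre and pole of the glomerulus, 9 were lowest of the controls in control 2, with sums of 310, 104 and 213 TPM compared with 135 and 116 TPM. Gucy1b1, one of these, was listed at 0 in KspCre DKO 2. The 8 fibroblast genes summed to 214, 95.8 and 238 TPM against 73.8 and 111 TPM, all 7 tested ones with fold changes below 0, and Lum was listed at 0 in KspCre DKO 2. The 12 mainly podocytic genes summed to 192, 104 and 252 TPM in the 3 controls (183 ± 74.5, SD, n = 3), and to 153 and 135 TPM in the KspCre DKO libraries (mean 144 TPM), the latter both between control 2 and control 1. The share of glomeruli in each library was not measured, and its part in these values was not tested.

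**Figure D3:**
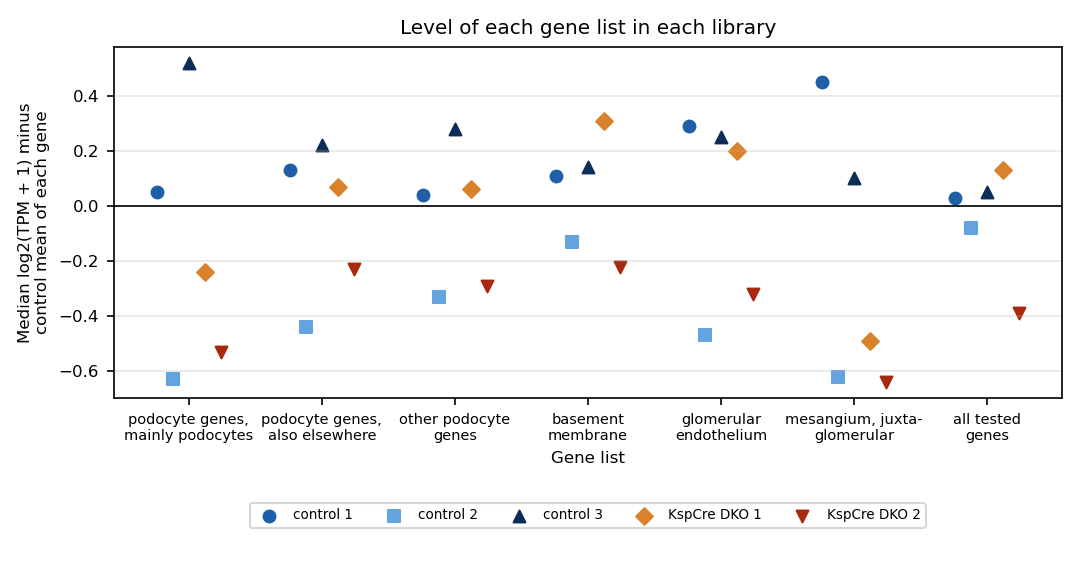
Median over the tested genes of each list of log2(TPM + 1) minus that gene's control mean, 1 point per library. Control 2 is at −0.63 for the mainly podocytic genes, −0.47 for glomerular endothelium and −0.62 for mesangium and juxtaglomerular cells, against −0.08 for all tested genes, while KspCre DKO 2 is at −0.53, −0.32, −0.64 and −0.39. For other podocyte genes and basement membrane, control 2 is at −0.33 and −0.13 and KspCre DKO 2 at −0.29 and −0.22.

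Other genes of podocytes gave no call either. Their sum was 893 ± 238 TPM among controls against 911 ± 26 TPM in the KspCre DKO libraries (SD, n = 3 and 2). Of this sum Nupr1 alone held 90.2 ± 21.9 TPM in controls and 213 ± 56.4 TPM in the KspCre DKO libraries. For the 29 genes the sum was 952 ± 182 against 714 ± 259 TPM. It was 981, 757 and 1120 TPM in controls 1, 2 and 3, and 898 and 531 TPM in KspCre DKO 1 and 2. Vegfa alone stood at 299 and 81.8 TPM in those KspCre DKO libraries. Of 36 further podocyte genes 35 were tested, and 22 had fold changes below 0 and 13 above, with a median of −0.09. This median ran from −0.29 without KspCre DKO 1 to 0.06 without KspCre DKO 2. The median of all tested genes was −0.39 without KspCre DKO 1 and 0.13 without KspCre DKO 2. None of the 35 passed the test (limma, adjusted p 0.208 at the least). At an unadjusted p below 0.05 there were 2 higher and 1 lower, against 4.16% and 6.15% of all tested genes. The 2 higher were Nupr1, a stress-responsive chromatin protein that other kidney cells also express, at 86.9, 70.2 and 114 TPM against 174 and 253 TPM, and Kirrel3, a relative of Kirrel, at 0.50, 0.35 and 0.97 TPM against 2.40 and 2.28 TPM. The lower gene was Mme, the membrane peptidase neprilysin, which is also a brush border protein, at 20.5 ± 5.67 against 10.9 ± 1.87 TPM (SD, n = 3 and 2). Prkci, the atypical protein kinase C of the cell polarity complex, stood at 9.06 ± 0.95 against 15.1 ± 2.84 TPM. Cdkn1c, a cell cycle inhibitor, stood at 104, 43.7 and 162 TPM against 57.8 and 99.98 TPM, with overlap.

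The glomerular basement membrane, which podocytes and endothelium lay down together, was level as a list in whole kidney. The glomerular share of the RNA of its genes was not measured. Of its 14 genes 8 had fold changes below 0 and 6 above, with a median of −0.04, and none passed the test (limma). At an unadjusted p below 0.05, 1 was higher and 1 lower, against 4.16% and 6.15% of all tested genes. Col4a3, a chain of the type IV collagen of this membrane, stood at 51.0, 44.3 and 48.6 TPM against 64.9 and 32.6 TPM. The KspCre DKO libraries lay on either side of the controls. Itga3, the laminin-binding integrin chain of podocytes and tubule cells, stood at 24.2, 23.1 and 26.5 TPM against 44.7 and 41.3 TPM (log2 fold change 0.78 ± 0.26 SE, limma adjusted p = 0.354), and Nid2, a nidogen, at 42.4 ± 7.13 against 21.8 ± 5.93 TPM (SD, n = 3 and 2; limma adjusted p = 0.329). Lamc1, a laminin chain, stood at 73.3 ± 20.1 against 48.0 ± 5.84 TPM.

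Of the lists taken for neighbouring glomerular cells, endothelial markers had a median log2 fold change of −0.14, equal to that of all tested genes. None passed the test (limma). At an unadjusted p below 0.05, 1 was lower and none higher, against 6.15% and 4.16% of all tested genes. The median of these endothelial markers was −0.35 without control 2 and 0.20 without KspCre DKO 2. That of all tested genes was −0.17 and 0.13. Kdr, the receptor for VEGF-A, stood at 12.5, 4.52 and 10.9 TPM against 8.62 and 7.92 TPM. Ehd3, a marker of glomerular capillaries, stood at 35.0 ± 13.3 against 23.7 ± 2.33 TPM, Nostrin, a regulator of endothelial nitric oxide synthase, at 5.56 ± 1.39 against 2.35 ± 0.23 TPM and Eng, the co-receptor endoglin, at 48.9 ± 18.4 against 66.5 ± 2.33 TPM (SD, n = 3 and 2). All 10 mesangial and juxtaglomerular markers had fold changes below 0, as did 61.7% of all tested genes, with a median of −0.56. None passed the test (limma). At an unadjusted p below 0.05, 1 was lower and none higher, against 6.15% and 4.16% of all tested genes. Pdgfrb, a receptor of mesangial cells and other pericytes, stood at 17.2, 13.7 and 23.0 TPM against 9.31 and 10.2 TPM, without overlap (log2 fold change −0.79 ± 0.32 SE, limma adjusted p = 0.439). Fhl2, Akr1b7, Gucy1a1 and Cspg4 also had KspCre DKO values below every control, as did 15.6% of all tested genes. Itga8, an integrin chain of mesangial cells, stood at 6.90, 2.33 and 7.61 TPM against 3.40 and 4.07 TPM. The median of these markers was −0.36 at the highest and −0.97 at the lowest when 1 library was left out.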

How the data were processed

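Polyadenylated RNA of whole kidneys was sequenced from Illumina TruSeq libraries, per the labels' protocols. The deposited values are TPM per gene. The build mm10 and the tools STAR 2.2.1, RSEM 1.3.1, Bismark 0.19.1 and Trim Galore 0.5.0 are listed in the submitters' processing notes, without roles. Annotation release and strand setting: not given in the sources used here. Symbols were paired with 54079 of 54146 identifiers (99.9%), on the identifier without its version where versions differed.

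Two-sided tests used limma 3.58.1 (R 4.3.3) with trended empirical Bayes moderation of log2(TPM + 1). Genes whose mean over the 5 libraries reached 1 TPM entered, with Benjamini-Hochberg adjustment over all of them and a threshold of 0.05. On this log2 scale, changes of low genes are understated. With 3 and 2 libraries there are 10 splits, so an exact permutation test of any 1 gene cannot reach a p under 0.1. The members, their split by known expression and the other lists were chosen with earlier results of these data known; the rule for named genes took the genes of smallest p, the most abundant ones and fixed anchors. Results for a pair of genes it covers are not reported here. Promoters and gene positions are from RefSeq for GRCm38.p6. The count of 15 CpG pairs and the ratios between controls were chosen after seeing the values. Alternatives were pseudocounts, filters, scalings, limma settings, the replicate block and each library left out.

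The lists for other cells gave no call. Proximal tubule, parietal epithelium and principal cell genes had median log2 fold changes of 0.07, 0.20 and 0.90, and thick ascending limb, fibroblast and macrophage genes −1.35, −0.74 and −0.74.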

Additional observations from a re-analysis of the deposited data

How the results depend on the processing

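No podocyte gene passed the test in 15 of the 16 alternatives. Without KspCre DKO replicate 1, 2 were lower, Dpp4 (log2 fold change −1.55, limma adjusted p = 0.0467) and Vegfa (−1.86, limma adjusted p = 0.0341), in a fit with 1 library in that group, assumed to vary like the controls, where 3.34% of all tested genes were called lower. Of 439 fold changes of a podocyte gene under an alternative, 396 kept their direction and their side of the threshold. The sign changed for 15 genes and 13 kept it throughout. It changed for Wt1 at a pseudocount of 5 (−0.01), for Clic5 with median-of-ratios scaling (0.07) and without mitochondrially encoded genes (0.07), for Clic5, Plce1 and Npr3 with quantile normalization (0.02, 0.04 and 0.02), for Podxl, Clic5, Plce1 and Npr3 without the 25 most abundant genes (0.03, 0.15, 0.01 and 0.07), and for Nphs1, Magi2, Inf2, Ddn and Wt1 with array weights (−0.09, −0.06, −0.06, −0.09 and −0.19). With the replicate block it changed for Podxl, Clic5, Foxc2 and Npr3 (0.09, 0.15, 0.17 and 0.17), and the median of the podocyte genes was 0.03. The block leaves the unpaired control 3 without weight, so its fold changes equal those without control 3. The cause of the other changes was not tested.

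With 1 library left out in turn, fold changes ran from −0.32 to 0.29 for Nphs1, −0.24 to 0.33 for Magi2, −0.70 to 0.12 for Podxl, −0.13 to 0.53 for Cd2ap, −0.19 to 0.24 for Inf2, −0.15 to 0.52 for Myo1e, −0.05 to 0.21 for Arhgap24, −0.21 to 0.45 for Ddn, −0.51 to 0.23 for Clic5, −0.41 to 0.30 for Wt1, −0.57 to 0.17 for Foxc2, −0.98 to 0.02 for Dach1, −0.61 to 0.17 for Npr3 and −0.23 to 0.63 for Sema3g. The median of all podocyte genes ran from −0.55 (without control 2) to 0.03 (without control 3). That of the genes also found in other kidney cells ran from −0.49 (without control 2) to 0.12 (without control 3). The median of basement membrane genes ran from −0.22 (without KspCre DKO 1) to 0.31 (without KspCre DKO 2). For all tested genes it was −0.17 without control 2, −0.11 without control 3, −0.39 without KspCre DKO 1 and 0.13 without KspCre DKO 2. The count of podocyte genes called lower ran from 0 to 2.

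Over all tested genes 14 were higher and 9 lower. With 1 library left out these counts ran from 3 to 89 and from 1 to 466. They were 7 higher at a pseudocount of 0.1, 28 higher at a pseudocount of 5, 3 and 1 with no filter, 23 higher with median-of-ratios scaling, 35 higher with quantile normalization, 26 higher without mitochondrially encoded genes, 37 higher without the 25 most abundant genes, 6 and 3 without trend, 3 and 2 with array weights and 47 and 28 with the replicate block. The labels do not tie the replicate numbers across groups. Deviations of same-numbered libraries from their group means correlated at 0.09 and 0.03 across genes. With 2 KspCre DKO libraries the deviations of 1 mirror those of the other, so these values cannot show whether libraries were paired. The median of all tested genes moved from −0.14 to between −0.04 and 0.03 under the 4 other scalings. Depth is unknown for TPM, so the precision of genes near 1 TPM cannot be given.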
